A study of Mus musculus with 12 samples.

Results

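The 10 genes of mitochondrial long-chain fatty acid oxidation, *Cpt1a*, *Cpt2*, *Slc25a20*, *Acadvl*, *Acadl*, *Acadm*, *Hadha*, *Hadhb*, *Acaa2* and *Etfdh*, were followed in primary mouse CD8+ T cells exposed in culture to trans-vaccenic acid (TVA), a long-chain trans fatty acid of ruminant fat. They were taken by gene symbol from RNA-seq tables of 54532 genes, which held all 10. The set was chosen from earlier results of these libraries, in which *Cpt1a* rose with TVA, so the values of *Cpt1a* are a description with no test. The cells had been activated in culture and transfected with Accell short interfering RNA, either non-targeting (siNTC, labelled WT) or directed at *Creb1* (siCreb1, labelled Creb1 KD), and then given TVA or the DMSO vehicle for 24 h. *Creb1* encodes the transcription factor CREB. The 4 groups were siNTC with DMSO, siNTC with TVA, siCreb1 with DMSO and siCreb1 with TVA, with 3 libraries each, and siNTC cells had gone through the same transfection as siCreb1 cells. The labels do not say whether libraries came from separate mice, so p-values measure only the spread between libraries, which may be technical.

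The knockdown was transient and incomplete. *Creb1* was at 10.3 to 12.4 FPKM (fragments scaled by gene length and library size) in the 6 siNTC libraries and at 1.17 to 1.81 FPKM in the 6 siCreb1 libraries. The 12 libraries held between 16660234 and 24602484 reads recovered from the FPKM values. The summed level of the T and CD8 T cell markers (*Cd3e*, *Cd3g*, *Cd8a*, *Cd8b1*) was 1492 to 1588 FPKM in every library, against 3.34 to 4.66 for CD4 T cell markers, 1.09 to 2.74 for B cell markers, 3.83 to 5.24 for NK cell markers and 4.93 to 8.88 for myeloid markers. Dendritic cell, red cell and fibroblast or epithelial markers each summed to at most 0.681 FPKM. In bulk RNA, fewer cells of a type and less RNA per cell cannot be told apart.

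Long-chain fatty acids enter the mitochondrion through the carnitine shuttle. CPT1 on the outer membrane joins the fatty acid to carnitine and is the main point of control, the carrier SLC25A20 moves the acylcarnitine across the inner membrane, and CPT2 returns the acyl group to coenzyme A inside. The acyl chain is then shortened in repeated rounds by acyl-CoA dehydrogenases of different chain-length preference (VLCAD, LCAD and MCAD, from *Acadvl*, *Acadl* and *Acadm*), by the mitochondrial trifunctional protein (*Hadha* and *Hadhb*) and by a thiolase (*Acaa2*), while ETF dehydrogenase (*Etfdh*) passes the electrons to ubiquinone. Effector CD8+ T cells draw heavily on glycolysis, and fatty acid oxidation is best known in memory CD8+ T cells.

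Transcription factors such as CREB and the fatty acid receptors of the PPAR family can bind near the start of their target genes, but not only there. The 250 bases before the RefSeq start (GRCm38.p6) are shown for the 3 genes with the largest differences with TVA. They are written 5′ to 3′ on the strand of each gene, with capitals for the nuclear receptor half-site AGGTCA or its reverse complement. *Cpt1a* (chr19:3323051-3323300, plus strand) and *Acadvl* (chr11:70015429-70015678, minus strand) each held 1 match, and *Slc25a20* (chr9:108661886-108662135, plus strand) held none.

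*Cpt1a*: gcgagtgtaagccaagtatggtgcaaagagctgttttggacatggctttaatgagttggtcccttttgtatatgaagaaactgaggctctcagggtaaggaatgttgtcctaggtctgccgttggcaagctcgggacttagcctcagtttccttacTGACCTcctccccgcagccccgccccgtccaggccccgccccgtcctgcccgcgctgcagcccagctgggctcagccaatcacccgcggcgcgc
*Slc25a20*: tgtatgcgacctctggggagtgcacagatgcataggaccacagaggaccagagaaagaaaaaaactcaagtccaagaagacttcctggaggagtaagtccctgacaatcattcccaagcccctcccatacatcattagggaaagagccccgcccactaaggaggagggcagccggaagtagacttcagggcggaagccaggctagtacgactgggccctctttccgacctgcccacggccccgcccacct
*Acadvl*: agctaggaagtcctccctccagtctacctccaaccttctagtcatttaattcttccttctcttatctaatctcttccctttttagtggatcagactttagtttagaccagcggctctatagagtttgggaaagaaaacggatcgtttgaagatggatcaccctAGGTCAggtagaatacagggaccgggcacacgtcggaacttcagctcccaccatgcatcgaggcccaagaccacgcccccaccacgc

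The match lay 94 bases before the start in *Cpt1a* and 87 bases before it in *Acadvl*. Windows of the 250 bases before the start were searched on both strands for 9 of the members. AGGTCA was found in 3 of the 9 windows (*Cpt1a*, *Acadvl* and *Acadm*) and in 14.02% of 32851 windows of all genes. The cAMP response element TGACGTCA, the site to which CREB binds, was found in none of the 9 and in 1.55% of all windows. Its half-site TGACG, which lies within the full site, was found in *Etfdh* and *Acadm* (2 of 9, against 17.8% of all windows). The DR1 motif, a direct repeat of AGGTCA with a single base between that binds PPAR receptors, was found in none of the 9 and in 0.0335% of all windows. A match is a description of the letters, and its absence says only that these letters are not in the window.

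*Cpt1a* (ENSMUSG00000024900, chromosome 19, 3323301 to 3385732, plus strand), the liver isoform of CPT1, had the largest difference with TVA of the 10 genes. It was at 11.4, 11.7 and 12.05 FPKM in the siNTC libraries and at 34.7, 33.6 and 35.3 FPKM in the siNTC libraries with TVA. In siCreb1 cells it was at 11.8, 11.6 and 13.02 FPKM without TVA and at 33.7, 32.3 and 33.8 FPKM with it. All 6 libraries with TVA were above all 6 without, while at each treatment the siCreb1 and siNTC libraries overlapped. The means were 11.7 ± 0.333 and 34.5 ± 0.901 FPKM in siNTC cells, a 2.95-fold difference, and 12.2 ± 0.753 and 33.2 ± 0.844 FPKM in siCreb1 cells, a 2.73-fold difference (SD, n = 3 throughout). These values rested on 877 to 1238 reads per library without TVA and 2401 to 3474 with it.

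On the scale of log2(FPKM + 1), used for all differences given here, *Cpt1a* was higher with TVA by 1.48 (SE 0.0419) in siNTC cells and by 1.38 (SE 0.0419) in siCreb1 cells. Among all 11550 genes tested *Cpt1a* had rank 4 in both comparisons. Among the 9640 protein-coding genes with a mean of at least 1 FPKM it had rank 1 in both. The next protein-coding gene was *Gm17622* at 1.27 in siNTC cells and *Gm10800* at 1.30 in siCreb1 cells, both named here after their values were seen. Between siCreb1 and siNTC cells *Cpt1a* differed by 0.05 without TVA and by −0.05 with TVA, and the difference between the TVA effects was −0.10 (SE 0.0593).

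**Figure D1:**
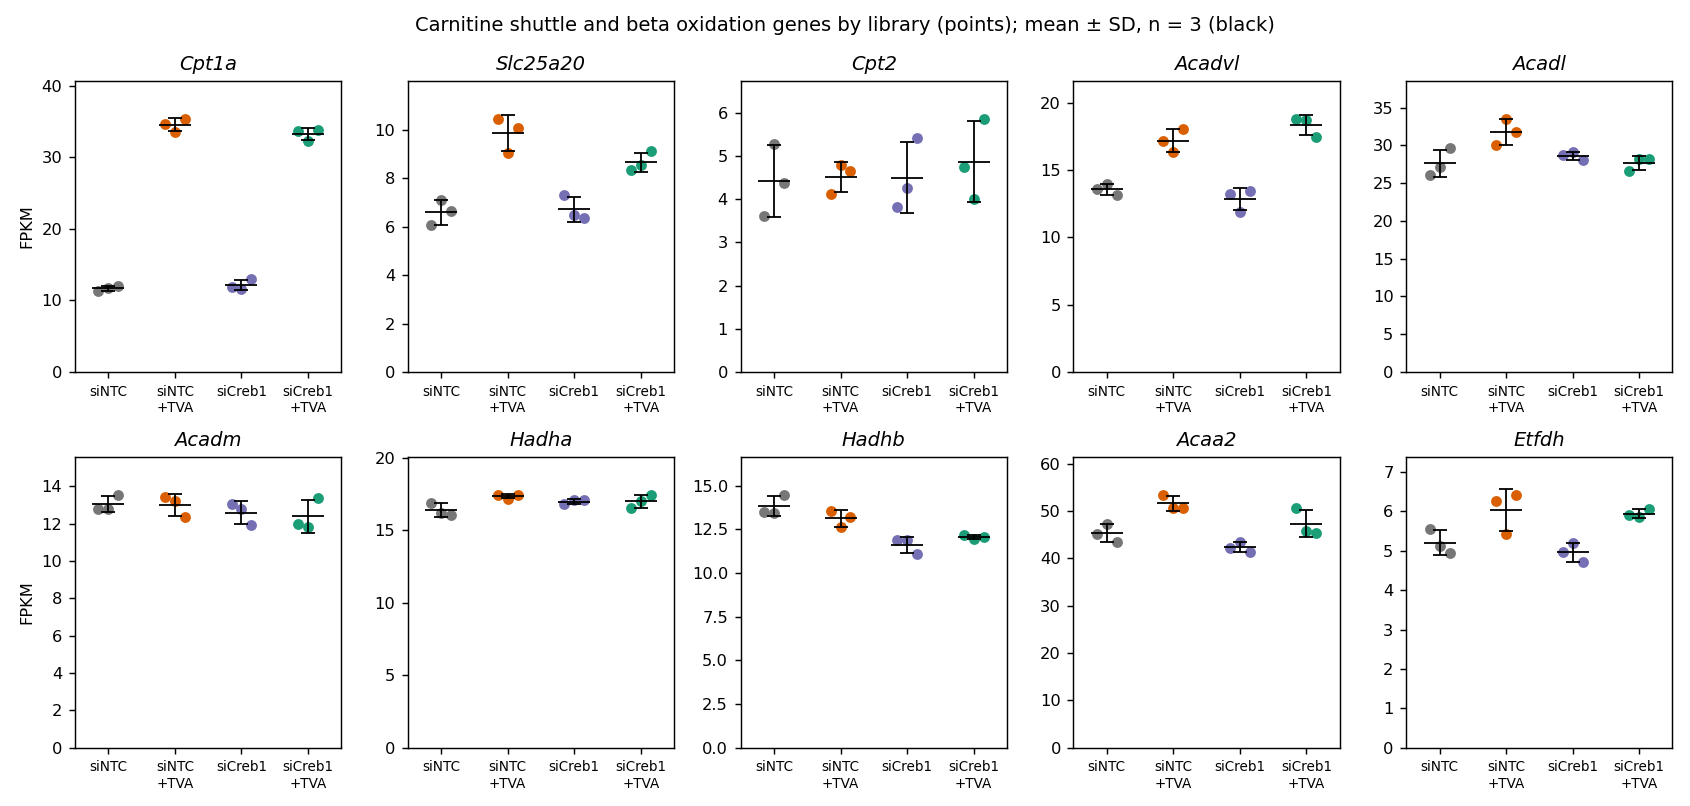
Level in FPKM (vertical axis, from 0, a separate scale for each gene) of the 10 genes in each of the 12 libraries; points are libraries, black bars are the mean ± SD of 3 libraries, and columns are the 4 groups. *Cpt1a* has no library with TVA below 32.3 FPKM and none without TVA above 13.02 FPKM, and *Cpt2* and *Acadm* overlap in all groups.

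**Figure D2:**
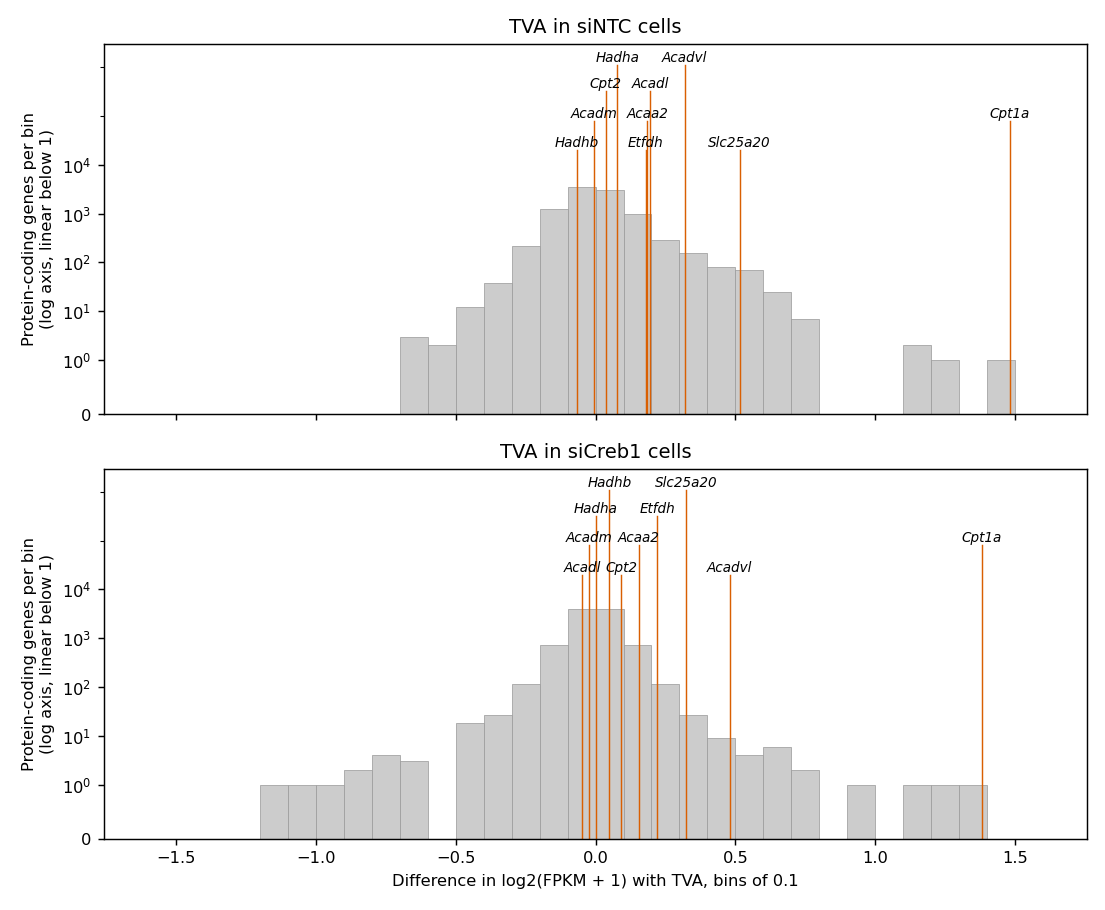
Number of protein-coding genes (vertical axis, logarithmic and linear below 1) in bins of the difference in log2(FPKM + 1) with TVA (horizontal axis), for siNTC cells above and siCreb1 cells below. *Cpt1a*, at 1.48 and 1.38, is the rightmost of 9640 genes in each panel.

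Carnitine shuttle genes did not all rise by the same amount with TVA. *Slc25a20* (ENSMUSG00000032602, chromosome 9, 108662088 to 108684641, plus strand), the carnitine-acylcarnitine carrier, was at 6.05, 7.08 and 6.63 FPKM in siNTC cells and at 10.4, 9.02 and 10.1 FPKM with TVA. It was at 7.29, 6.48 and 6.35 FPKM in siCreb1 cells and at 8.31, 8.53 and 9.09 FPKM with TVA. The libraries with and without TVA did not overlap under either siRNA. *Slc25a20* rose with TVA in siNTC cells by 0.52 (95% interval 0.36 to 0.67, adjusted p = 0.00114, limma with Benjamini-Hochberg adjustment over all 11550 genes tested), a 1.49-fold difference. In siCreb1 cells the difference was 0.32 (interval 0.17 to 0.48, 1.29-fold), which missed the threshold of 0.05 (limma adjusted p = 0.0937). The difference between the TVA effects was −0.19 (interval −0.41 to 0.03, limma adjusted p = 0.421), so the smaller value in siCreb1 cells was not shown to differ.

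*Cpt2* (chromosome 4, 107903981 to 107923610, minus strand), the inner membrane transferase, was the lowest of the 10 genes in every group and the least precise, with 172 to 309 reads per library. It was at 4.42 ± 0.832 FPKM in siNTC cells and 4.51 ± 0.348 FPKM with TVA, and at 4.49 ± 0.823 FPKM in siCreb1 cells and 4.86 ± 0.934 FPKM with TVA. The groups overlapped, and the difference with TVA was 0.04 (interval −0.28 to 0.36) in siNTC cells and 0.09 (interval −0.23 to 0.41) in siCreb1 cells. The rise of *Slc25a20* lay outside the *Cpt2* interval in siNTC cells (0.52) and inside it in siCreb1 cells (0.32). *Cpt1b* and *Cpt1c*, the muscle and brain isoforms of CPT1, were at 0.0149 to 0.209 FPKM and 0.00853 to 0.146 FPKM, too low to be tested.

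The 3 acyl-CoA dehydrogenase genes differed. *Acadvl* (ENSMUSG00000018574, chromosome 11, 70010183 to 70015411, minus strand), which encodes the very long-chain enzyme, was at 13.6, 13.98 and 13.2 FPKM in siNTC cells and at 17.2, 16.3 and 18.1 FPKM with TVA. Its siCreb1 libraries were at 13.2, 11.9 and 13.4 FPKM, and at 18.8, 18.7 and 17.5 FPKM with TVA. All 6 libraries with TVA were above all 6 without. *Acadvl* rose with TVA by 0.32 (interval 0.20 to 0.43, limma adjusted p = 0.00365, 1.27-fold) in siNTC cells and by 0.48 (interval 0.37 to 0.59, limma adjusted p = 0.00148, 1.42-fold) in siCreb1 cells. The TVA effects differed by 0.16 (interval 0.00 to 0.32), with a limma p of 0.049 before and 0.345 after adjustment. On the opposite strand *Dvl2* shares 2119 bases with *Acadvl*, and no source used here says whether strand was used in counting. *Dvl2* itself was at 9.07 to 11.6 FPKM and differed with TVA by −0.05 and −0.07 (limma adjusted p = 0.726 and 0.816).

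*Acadl* (chromosome 1, 66830839 to 66863277, minus strand), which encodes the long-chain enzyme, was at 26.1, 27.1 and 29.6 FPKM in siNTC cells and at 30.0, 33.5 and 31.8 FPKM with TVA. The siCreb1 libraries were at 28.7, 29.1 and 28.0 FPKM, and at 26.6, 28.2 and 28.1 FPKM with TVA. The 3 siNTC libraries with TVA were the highest of the 12, the lowest of them at 30.0 FPKM beside 29.6 FPKM in a library without TVA. *Acadl* rose with TVA in siNTC cells by 0.20 (interval 0.09 to 0.31, limma adjusted p = 0.0398), and in siCreb1 cells it differed by −0.05 (interval −0.16 to 0.06, limma adjusted p = 0.84). The TVA effects differed by −0.24 (interval −0.40 to −0.09), with a limma p of 0.00579 before and 0.125 after adjustment. The rise in siNTC cells was past the threshold in 8 of 21 alternative analyses, with adjusted p from 0.0135 to 0.163, and 9 of the 12 fits that left out 1 library lost it.

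*Acadm* (chromosome 3, 153922357 to 153944632, minus strand), which encodes the medium-chain enzyme, was at 13.1 ± 0.435 FPKM in siNTC cells and 13.01 ± 0.576 FPKM with TVA, and at 12.6 ± 0.604 FPKM in siCreb1 cells and 12.4 ± 0.865 FPKM with TVA. The groups overlapped, and the difference with TVA was −0.01 (interval −0.12 to 0.11) in siNTC cells and −0.02 (interval −0.14 to 0.10) in siCreb1 cells. Both intervals lay below the rise of *Acadvl* in the same cells.

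The trifunctional protein subunits are neighbours on chromosome 5, transcribed away from each other. *Hadha* (30118304 to 30155162, minus strand) encodes the subunit with hydratase and dehydrogenase activity, and *Hadhb* (30155248 to 30184593, plus strand) the subunit with thiolase activity. The 85 bases between the 2 genes, written on the plus strand (chr5:30155163-30155247, GRCm38.p6), are shown because the neighbours share them and yet gave different values.

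*Hadha* to *Hadhb*: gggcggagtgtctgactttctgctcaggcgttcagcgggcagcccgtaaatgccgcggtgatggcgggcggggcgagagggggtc

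*Hadha* was at 16.4 ± 0.471 FPKM in siNTC cells, 17.4 ± 0.148 FPKM with TVA, 17.0 ± 0.162 FPKM in siCreb1 cells and 17.0 ± 0.429 FPKM in siCreb1 cells with TVA. Its difference with TVA was 0.08 (interval 0.01 to 0.14, limma adjusted p = 0.143) in siNTC cells and 0.00 (interval −0.06 to 0.06) in siCreb1 cells. *Hadhb* was at 13.5, 13.5 and 14.5 FPKM in siNTC cells and at 13.6, 12.6 and 13.2 FPKM with TVA. In siCreb1 cells it was at 11.9, 11.9 and 11.1 FPKM, and at 12.2, 11.9 and 12.1 FPKM with TVA. All 6 siCreb1 libraries were below all 6 siNTC libraries. *Hadhb* fell with the knockdown in cells without TVA by 0.23 (interval −0.32 to −0.14, limma adjusted p = 0.00421), to 0.841 of the siNTC mean, whereas with TVA the difference was −0.11 (interval −0.20 to −0.03, limma adjusted p = 0.0973). With TVA *Hadhb* differed by −0.07 in siNTC cells and 0.05 in siCreb1 cells (limma adjusted p = 0.37 and 0.769).

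*Acaa2*, the mitochondrial 3-ketoacyl-CoA thiolase on chromosome 18, was the most abundant of the 10 genes per length in every group. It was at 45.2, 47.3 and 43.4 FPKM in siNTC cells and at 53.4, 50.7 and 50.7 FPKM with TVA. Under siCreb1 it was at 42.1, 43.4 and 41.4 FPKM, and at 50.6, 45.9 and 45.4 FPKM with TVA. The libraries with and without TVA did not overlap under either siRNA. *Acaa2* rose with TVA in siNTC cells by 0.18 (interval 0.08 to 0.28, limma adjusted p = 0.0333), a call kept in 12 of 21 alternative analyses, and differed by 0.15 (interval 0.06 to 0.25, limma adjusted p = 0.259) in siCreb1 cells. Leaving out siNTC replicate 1 or 3, or any 1 of the siNTC libraries with TVA, ended the call, and the highest adjusted p over the alternatives was 0.107.

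*Etfdh* (chromosome 3, 79603788 to 79629500, minus strand) was at 5.56, 5.12 and 4.95 FPKM in siNTC cells and at 6.27, 5.42 and 6.43 FPKM with TVA. Its siCreb1 libraries were at 4.96, 5.21 and 4.72 FPKM, and at 5.90, 5.86 and 6.07 FPKM with TVA. The libraries overlapped in siNTC cells and not in siCreb1 cells. The difference with TVA was 0.18 (interval 0.04 to 0.31, limma adjusted p = 0.117) and 0.22 (interval 0.08 to 0.36, limma adjusted p = 0.227), so neither passed. In siNTC cells 2 of 21 alternatives passed, limma-voom on recovered reads (adjusted p = 0.0339) and the fit without siNTC TVA replicate 2 (adjusted p = 0.0347), and in siCreb1 cells limma-voom alone did (adjusted p = 0.0291). The gene *4930579G24Rik* shares 422 bases with *Etfdh* on the opposite strand and rose with TVA in siNTC cells by 0.28 (limma adjusted p = 0.0297). Its part in the *Etfdh* values was not tested.

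**Figure D3:**
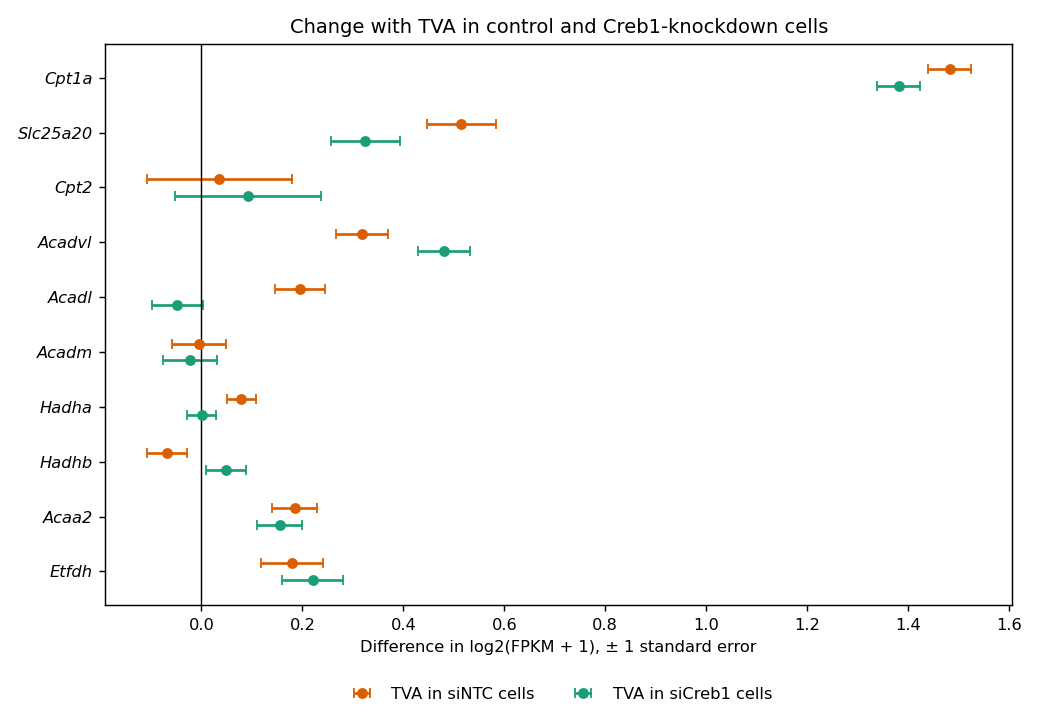
Difference in log2(FPKM + 1) with TVA (horizontal axis, ± 1 standard error) for each of the 10 genes, in siNTC cells and in siCreb1 cells. *Cpt1a* stands at 1.48 and 1.38, *Slc25a20* and *Acadvl* lie between 0.32 and 0.52, and *Acadm*, *Hadha*, *Hadhb* and *Cpt2* lie within 0.10 of 0.

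Of the 9 members other than *Cpt1a*, 4 (*Slc25a20*, *Acadvl*, *Acadl* and *Acaa2*) rose with TVA in siNTC cells and 0 fell, where 4.49% of all genes tested were called higher (60.9% of the genes called, or 72.3% as TPM, which sets every library to the same total). In siCreb1 cells 1 of the 9, *Acadvl*, rose, where 0.121% of all genes were called higher (14 of the 62 genes called, or 22.6%). Since the members were chosen with these results known, the counts are a description. In siCreb1 cells the summed NK cell markers (*Ncr1* and *Klrb1c*) were at 3.83 to 4.27 FPKM without TVA and 4.76 to 5.07 FPKM with it, and the summed myeloid markers at 4.95 to 6.63 and 7.73 to 8.88 FPKM, without overlap. In siNTC cells both sums overlapped between treatments. *Ncr1* differed with TVA in siCreb1 cells by 0.44 (limma adjusted p = 0.159). *Klrb1c* overlapped there, at 2.71 to 3.30 FPKM without TVA and 2.91 to 3.36 FPKM with it. Of the 5 myeloid markers only *Lyz2* averaged 1 FPKM or more. The part of these markers' cells in the TVA differences was not tested. The median difference of all 10 genes was 0.18 in siNTC cells and 0.12 in siCreb1 cells, beside −0.01 and −0.00 over all genes tested. The 2 TVA comparisons share no library, and 7 of the 9 members other than *Cpt1a* had the same sign in both, as did 53.9% of all genes. *Acadm*, among the 7, was negative in both, at −0.01 and −0.02. *Hadha*, also among them, was at 0.00 in siCreb1 cells and turned sign there when 1 library was left out. *Cpt2* and *Acadm* turned sign in both comparisons when 1 library was left out.

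Of the genes tested other than *Cpt1a*, 7 (0.0606%) rose with TVA under both siRNAs, among them *Acadvl*, and 27 fell under both. The others that rose were *Klf11*, *Rhob*, *Asf1b*, *Hilpda*, *Klf10* and *Gm8566*, named as a count this small. *Hilpda*, which encodes a lipid droplet protein, differed by 0.57 in siNTC cells and 0.47 in siCreb1 cells, and *Klf10*, a Krüppel-like transcription factor, by 0.41 and 0.45.

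The change in levels altered the order of the genes by FPKM. This order and the shares below depend on the gene lengths used, 1515 bases for *Acaa2* and 8730 for *Hadha*. In siNTC cells without TVA *Cpt1a* was the 7th of the 10 by FPKM, and with TVA it was the 2nd, above *Acadl*. In siCreb1 cells it went from the 6th place to the 2nd. *Cpt1a* made up 7.43 ± 0.156% of the summed FPKM of the 10 genes in siNTC cells and 17.4 ± 0.292% with TVA, and 7.93 ± 0.531% and 17.7 ± 0.199% in siCreb1 cells. The sum itself went from 157.7 ± 2.68 to 199 ± 2.32 FPKM in siNTC cells and from 153 ± 0.743 to 187 ± 2.78 FPKM in siCreb1 cells. *Hadhb*, *Acadvl* and *Acadm*, the 4th to the 6th in siNTC cells without TVA, overlapped each other and held no clear order.

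Whether the knockdown of *Creb1* altered these genes was read at each treatment. Without TVA 1 of the 9 members, *Hadhb*, fell, where 7.21% of all genes tested were called lower. With TVA 1 of the 9, *Acadl*, was lower in siCreb1 than in siNTC cells, by 0.19 (interval −0.30 to −0.08, limma adjusted p = 0.0354), where 5.51% of all genes were called lower. Of the genes called with the knockdown, 47.5% were higher without TVA and 45.7% with TVA, but 75.4% and 83.8% when FPKM was rescaled to TPM, and 64.0% with TVA after quantile normalization. As TPM neither *Hadhb* (adjusted p = 0.06) nor *Acadl* passed. The *Acadl* call was kept in 10 of 21 alternative analyses and was lost without siNTC TVA replicate 2 or 3, siCreb1 replicate 1 or any siCreb1 TVA replicate. *Slc25a20* differed with TVA by −0.17 (limma adjusted p = 0.154) and *Acaa2* by −0.12 (limma adjusted p = 0.11). In the interaction, where 2.24% of all genes tested were called, 0 of the 9 passed in limma or in limma-voom, and 2 of them, *Acadl* and *Acadvl*, had an unadjusted p under 0.05, with opposite signs, as did 14.3% of all genes in either direction. The median of the 10 genes was −0.01 without TVA, −0.06 with TVA and −0.02 for the interaction, beside −0.00, −0.01 and 0.00 over all genes tested. In siCreb1 cells with TVA the summed myeloid markers, mainly *Lyz2*, were at 7.73 to 8.88 FPKM, against 4.93 to 7.19 FPKM in the other 9 libraries. The part of these markers' cells in the knockdown differences was not tested.

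**Figure D4:**
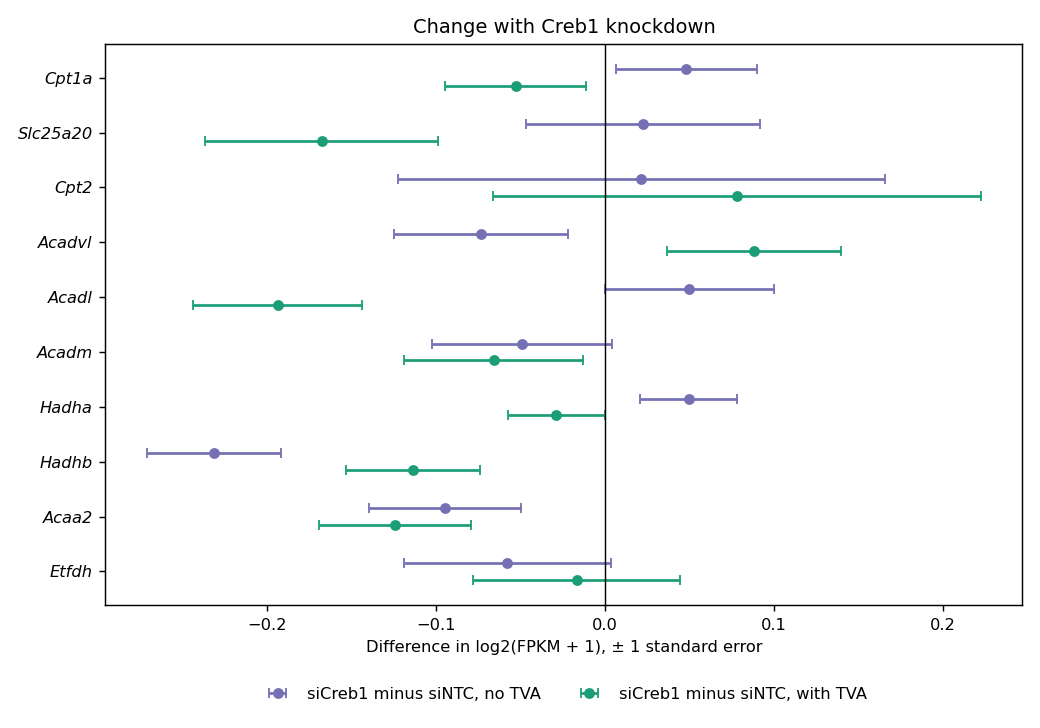
Difference in log2(FPKM + 1) between siCreb1 and siNTC cells (horizontal axis, ± 1 standard error) for the 10 genes, without and with TVA. *Hadhb* at −0.23 without TVA and *Acadl* at −0.19 with TVA are the 2 that passed the test, and *Cpt1a* lies at 0.05 and −0.05.

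The rest of the pathway was read from 4 further gene lists, by limma and, as an alternative, by limma-voom on the recovered reads. Of 14 other enzymes of beta oxidation, all tested, 0 rose with TVA under either siRNA by limma or by limma-voom, and at an unadjusted p under 0.05 there were 2 higher and 2 lower in siNTC cells, where 20.9% of all genes passed that limit in either direction, and 1 higher and 1 lower in siCreb1 cells, where 9.58% did. *Hsd17b10*, a short-chain hydroxyacyl-CoA dehydrogenase, fell with TVA in siNTC cells from 44.6 ± 3.16 to 38.1 ± 1.51 FPKM, by 0.22 (limma adjusted p = 0.046), where 2.88% of all genes were called lower. It also fell with the knockdown without TVA, to 37.4 ± 2.69 FPKM, by 0.25 (limma adjusted p = 0.0187). The median of the 14 was 0.01 with TVA in siNTC cells and 0.03 in siCreb1 cells.

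Of 8 genes of carnitine handling and malonyl-CoA, the inhibitor of CPT1, 4 were expressed highly enough to be tested and limma called 0 of them with TVA. *Acaca*, which encodes a malonyl-CoA producing acetyl-CoA carboxylase, was higher in siCreb1 than in siNTC cells without TVA, at 5.33 ± 0.197 against 4.38 ± 0.212 FPKM (0.23, limma adjusted p = 0.011), where 6.52% of all genes were called higher. In siCreb1 cells *Acaca* differed with TVA by −0.24, with a limma adjusted p of 0.084, and was the 1 gene of the 4 called lower there by limma-voom, also the 1 with an unadjusted p under 0.05 (9.58% of all genes). In siNTC cells 0 of the 4 had an unadjusted p under 0.05.

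Of 16 regulators of these genes 12 were tested, and 0 were called with TVA by limma or by limma-voom, with *Ppargc1b* lower in siNTC cells (−0.25) and *Sirt1* higher in siCreb1 cells (0.18) at an unadjusted p under 0.05, 1 of the 12 in each comparison against the same 20.9% and 9.58% of all genes. *Ppargc1b*, a coactivator of oxidation genes, was higher in siCreb1 than in siNTC cells with TVA, at 2.88 ± 0.177 against 2.24 ± 0.29 FPKM (0.26, limma adjusted p = 0.0429), where 4.64% of all genes were called higher. *Ppara*, a fatty acid receptor that controls *Cpt1a* in liver, had 0 to 2 reads per library. Of the other PPAR genes on the list, *Pparg* had 0 to 6 reads per library, too low to be tested. *Ppard* was expressed and was among the 12 tested, with 401 to 642 reads per library and a mean of 3.41 FPKM.

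Of 18 target genes of PPAR receptors known from other tissues 8 were tested, and by limma 0 rose with TVA under either siRNA. The list left out the 10 members, *Cpt1a* among them, so this count does not cover every target of these receptors. *Plin2*, a lipid droplet coat protein, differed with TVA by 0.30 and 0.42, with limma adjusted p of 0.072 and 0.0901. It was the 1 gene of the 8 that was higher with TVA at an unadjusted p under 0.05, in siNTC and in siCreb1 cells (20.9% and 9.58% of all genes passed that limit in either direction), and limma-voom called it in siCreb1 cells. *Pdk4*, a pyruvate dehydrogenase kinase, had 0 reads in every library.

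The genes whose level followed that of *Cpt1a* most closely over the 12 libraries, by Pearson's r of log2(FPKM + 1), were *Klf11* (0.972), *Acadvl* (0.945), *Hilpda* (0.941), *Rhob* (0.938) and *Slc25a20* (0.919). The coefficients describe 12 libraries in 4 groups and rest mainly on the step between libraries with and without TVA. *Klf11*, a Krüppel-like transcription factor, was at 1.29 ± 0.096 FPKM in siNTC cells and 4.05 ± 0.237 FPKM with TVA, and at 1.55 ± 0.185 FPKM in siCreb1 cells and 3.22 ± 0.234 FPKM with TVA. *Rhob*, a small GTPase, was at 2.34 ± 0.204 and 4.14 ± 0.183 FPKM in siNTC cells, and at 1.72 ± 0.227 and 3.67 ± 0.118 FPKM in siCreb1 cells. Of the other members *Etfdh* had an r of 0.831 and *Acaa2* of 0.755, and *Hadhb* and *Acadm* had −0.06 and −0.12.

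**Figure D5:**
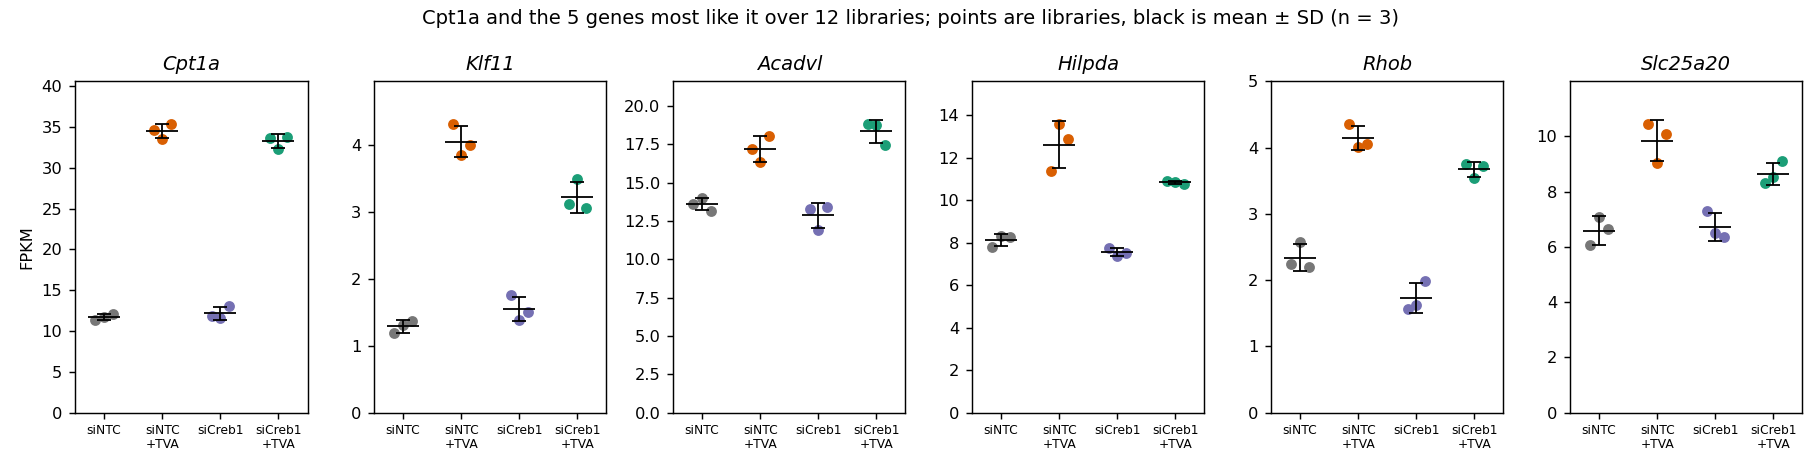
Level in FPKM (vertical axis, from 0, a separate scale for each gene) of *Cpt1a* and the 5 genes most like it over 12 libraries; points are libraries and black bars the mean ± SD of 3. In all 6 genes both TVA groups stand above both DMSO groups, and *Klf11* has means of 1.29 and 1.55 FPKM without TVA and 4.05 and 3.22 FPKM with it.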

How the data were processed

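RNA-seq libraries of mouse primary CD8+ T cells were analysed from the FPKM values that the authors deposited, 1 file per library (4 groups of 3), for 54532 genes of GRCm38 (mm10, per the submitters' processing notes). The aligner, the counting program, the use of strand and any scaling between libraries are not given in the sources used here. FPKM multiplied by gene length came out as whole reads (tolerance 0.05) for at least 99.99% of values above 0 and under 1000 reads. Higher values were rounded without this check. The reads gave the depth of each library, with a median of 20759165.

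The test took the 11550 genes whose FPKM averaged 1 or more across libraries, on log2(FPKM + 1), a scale that understates the change of low genes. It used limma 3.58.1 in R 4.3.3 (1 coefficient per group, eBayes with a mean-variance trend). P-values were Benjamini-Hochberg adjusted over these genes, with a threshold of 0.05. The script was tested on simulated data. The 10 members and the other gene lists were chosen with earlier results of these data known. *Creb1*, the members, the listed genes and the 5 genes most like *Cpt1a* by Pearson's r are named, and names outside this rule are marked. A result for 1 listed gene is not reported here. Replicate numbers come from the labels. Deviations of same-numbered libraries were hardly correlated, which does not show whether they share a mouse, and the main fit used no pairing. Alternatives changed the pseudocount, the filter, the scaling, the variance model, the count model, a replicate block and the libraries fitted. Motifs were searched in RefSeq windows, and tables and figures were made with pandas 2.3.3 and matplotlib 3.10.9 in Python 3.11.15.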

Additional observations from a re-analysis of the deposited data

How the results depend on the processing

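*Slc25a20* and *Acadvl* in siNTC cells and *Acadvl* in siCreb1 cells passed the threshold in 21 of 21 alternatives, and *Hadhb* without TVA in 20 of 21 (TPM gave an adjusted p of 0.06). The *Cpt1a* difference with TVA was 1.55 and 1.45 (siNTC and siCreb1 cells) with a pseudocount of 0.1, 1.53 and 1.43 as TPM, and 1.57 and 1.46 with limma-voom on recovered reads. As TPM it was 0.10 between siCreb1 and siNTC cells without TVA and −0.0016 with TVA. Members called with TVA in siNTC cells, 4 as reported, were 2 with all genes above 0, with no variance trend and with only the compared libraries, 2 to 4 when 1 library was left out, and 5 with limma-voom, which added *Etfdh*. In siCreb1 cells limma-voom called 3 (*Acadvl*, *Slc25a20* at an adjusted p of 0.00316 and *Etfdh* at 0.0291). The knockdown called 0 without TVA as TPM, and 0 with TVA with all genes above 0, as TPM, after quantile normalization, with no variance trend and with only the compared libraries, with 0 to 1 when 1 library was left out. The interaction called 0 to 1 of them, the 1 being *Acadl* without siNTC replicate 3 (−0.29, adjusted p = 0.0482). The median of the 10 genes without TVA was −0.049 with a minimum mean FPKM of 5 and 0.031 as TPM, and with TVA −0.0097 as TPM. Leaving out 1 library gave medians of 0.10 to 0.19 for TVA in siCreb1 cells and −0.066 to 0.0025 for the interaction. Signs turned for differences that were not called. These were *Acadm* with TVA in siNTC cells (0.0023 with limma-voom), *Cpt2* with the knockdown without TVA (−0.0039 after quantile normalization), and *Hadha* and *Etfdh* with the knockdown with TVA (0.022 and 0.031 as TPM). With 1 library left out, *Cpt2* ranged from −0.076 to 0.15 and −0.026 to 0.21 for TVA in siNTC and siCreb1 cells, −0.10 to 0.13 and −0.040 to 0.19 for the knockdown without and with TVA, and −0.062 to 0.17 for the interaction. *Acadm* ranged from −0.027 to 0.029, −0.075 to 0.0085 and −0.069 to 0.014 for TVA in siNTC cells, TVA in siCreb1 cells and the interaction. *Hadha* with TVA in siCreb1 cells ranged from −0.017 to 0.017, *Slc25a20* with the knockdown without TVA from −0.031 to 0.070, *Etfdh* with the knockdown with TVA from −0.081 to 0.023 and for the interaction from −0.024 to 0.081, and *Acaa2* for the interaction from −0.078 to 3.2e-05. The cause was not tested. Genes called over the whole table with TVA were 852 in siNTC cells (563 with all genes above 0, 556 as TPM, 368 with only the compared libraries, 558 without siNTC TVA replicate 2) and 62 in siCreb1 cells (37 as TPM, 34 with the replicate block, 157 with limma-voom, 39 with only the compared libraries, 30 to 67 with 1 library left out). For the knockdown they were 1586 without TVA and 1172 with TVA (992 and 683 with all genes above 0, 817 without TVA with only the compared libraries, 740 with TVA as TPM, 1020 to 1532 and 599 to 1245 with 1 library left out), and for the interaction 259 (152 as TPM, 446 with limma-voom, 168 to 237 with 1 library left out). In the fit with a replicate block the *Cpt1a* difference was 1.48 in siNTC cells and no member changed its call. Same-numbered libraries of different groups had correlated deviations of only −0.059 to 0.060. *Cpt2* is under the higher filter, and the interaction has no fit of only the compared libraries.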

Other observations

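*Hadhb* and *Hadha* encode the 2 subunits of 1 enzyme complex, and the ratio of their FPKM was looked at after their values were seen, so it is given with no test. It was 0.799, 0.830 and 0.904 in the siNTC libraries and 0.776, 0.735 and 0.759 in the siNTC libraries with TVA. In siCreb1 cells it was 0.707, 0.696 and 0.650, and 0.735, 0.703 and 0.691 with TVA. The 3 siNTC libraries without TVA were the highest of the 12, and the siCreb1 libraries with and without TVA overlapped.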
